A study of Mus musculus with 15 samples.

Results

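The genes described here encode the chains of collagen, and they were taken as every protein-coding gene whose mouse symbol is Col, a number, a and a number. The rule found 44 genes among the 54838 gene identifiers of the series. They fall into 11 fibrillar collagens, 8 collagens of basement membranes and 25 other collagens. RNA-seq was done on 15 mouse libraries, which form 5 groups of 3. The 4T1 line, mouse mammary carcinoma of BALB/c origin, was taken from culture medium with serum (4T1 in vitro) or from the lungs of BALB/c mice 7 days after injection into the tail vein (4T1 in vivo). Lung epithelial cells, titled by the surface protein EpCAM, were sorted from lungs that had been given 800000 labelling 4T1 cells 7 days before. They came from distal lung or from the metastatic niche, both with the treatment label control, or from a niche group with the treatment label shSox9. All 3 epithelial groups therefore came from lungs that had received 4T1 cells. Each biological replicate of sorted epithelium pooled 5 lungs, whereas no source used here ties the 4T1 replicates to different dishes or mice, and their p-values measure the spread between libraries, which may be technical. No source used here states which cells carried the Sox9 hairpin.

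Collagens are built from 3 chains wound into a triple helix, and many types need chains from different genes in the same molecule. Fibrillar collagens assemble into the ropes that give tissue its tensile strength and are made mainly by fibroblasts, whereas type IV collagen forms the sheet of the basement membrane on which epithelium and endothelium rest. Of the remaining types, some make beaded filaments or anchoring fibrils, some coat fibrils, and some span the cell membrane.

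The libraries held 15907316 to 30421705 counts. A count of 0 allows up to 3 counts, which is 0.104 to 0.212 CPM (counts scaled to library size, with TMM factors within the 4T1 or the epithelial libraries) in a single library. Sox9, named in the label of a group, stood at 59.6, 55.0 and 32.0 CPM in the niche libraries and at 81.3, 58.8 and 36 CPM in those labelled shSox9, a log2 difference of 0.26 ± 0.27 (SE, edgeR adjusted p = 0.55). It was therefore not found lower in the libraries labelled shSox9, and that label is used below only as a name. Sox9 also stood at 278 to 392 CPM in 4T1 in vivo and at 5.19 to 6.29 CPM in distal libraries. Both niche groups held transcripts of the carcinoma panel described below, so whether Sox9 fell within epithelial cells cannot be told from these values. Libraries titled EpCAM held transcripts of other cells. All 12 fibroblast markers were detected in each epithelial group, with Pdgfra at 373 to 586 CPM in distal and 668 to 736 CPM in niche libraries. Epcam itself stood at 83.8 to 102 CPM in distal, 28.9 to 69.2 CPM in niche and 23.2 to 32.1 CPM in shSox9 libraries. A panel of 14 non-collagen genes, chosen for at least 20 CPM in every 4T1 library and at most 1 CPM in every distal library, reached 15.4% to 23.0% of its summed 4T1 in vivo level in niche libraries and 12% to 21% in shSox9 libraries. Its low level in distal libraries was set by that choice and is no comparison. In bulk RNA, fewer cells of a type and less RNA per cell cannot be told apart.

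Several collagen genes lie next to a partner whose chain joins the same molecule, and promoter sequence is shown for 2 such pairs on chromosomes 1 and 8 and for Col1a2, Col3a1, Col8a1 and Col18a1, which are among the highest or most changed collagens below. Col4a4 (chr1:82448423-82586849, minus strand) and Col4a3 (chr1:82586921-82722059, plus strand) are transcribed away from each other, with 71 bases between their annotated starts. Col4a1 (chr8:11198423-11312826, minus strand) and Col4a2 (chr8:11312805-11449287, plus strand) also start head to head, and their genes overlap by 22 bases. Col4a6 and Col4a5 on the X chromosome start 1308 bases apart in the same arrangement. Coordinates are on GRCm38, 1-based, from GENCODE M21. The sequences come from RefSeq (GRCm38.p6), whose promoter table held 35 of the 44 collagens in 38 windows of 300 bases, and they are written 5′ to 3′ on the strand of the named gene. Capitals mark the motif CCAAT, the motif TATAAA or the motif GGGCGG read on either strand. On the opposite strand the first of these appears as ATTGG and the last of them as CCGCCC. Only bases outside annotated exons are shown, except for the 30 bases shown for Col4a2, which run from position -42 to -13 relative to its start and lie in an exon of Col4a1.
Col4a4 to Col4a3, the 71 bases between the starts on the Col4a4 strand, chr1:82586850-82586920: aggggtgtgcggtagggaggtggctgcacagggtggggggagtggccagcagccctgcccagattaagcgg
Col4a2, 30 bases in the first part of Col4a1, plus strand, chr8:11312763-11312792: gaggagctccCCAATttgttggcgctgccc
Col1a2, plus strand, chr6:4505370-4505492: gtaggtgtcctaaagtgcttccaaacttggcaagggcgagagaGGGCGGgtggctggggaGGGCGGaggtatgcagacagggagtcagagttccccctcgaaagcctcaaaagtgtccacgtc
Col3a1, plus strand, chr1:45311288-45311537: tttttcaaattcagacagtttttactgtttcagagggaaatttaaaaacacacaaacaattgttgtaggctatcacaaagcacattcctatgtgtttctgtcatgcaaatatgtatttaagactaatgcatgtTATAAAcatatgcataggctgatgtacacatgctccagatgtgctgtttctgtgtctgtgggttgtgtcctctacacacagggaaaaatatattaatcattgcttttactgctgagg
Col8a1, minus strand, chr16:57754738-57754987: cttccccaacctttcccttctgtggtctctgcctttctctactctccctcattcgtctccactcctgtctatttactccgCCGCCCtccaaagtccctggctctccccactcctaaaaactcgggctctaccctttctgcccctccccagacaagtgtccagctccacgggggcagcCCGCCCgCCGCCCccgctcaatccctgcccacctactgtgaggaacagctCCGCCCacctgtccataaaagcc
Col18a1, minus strand, chr10:77166549-77166780: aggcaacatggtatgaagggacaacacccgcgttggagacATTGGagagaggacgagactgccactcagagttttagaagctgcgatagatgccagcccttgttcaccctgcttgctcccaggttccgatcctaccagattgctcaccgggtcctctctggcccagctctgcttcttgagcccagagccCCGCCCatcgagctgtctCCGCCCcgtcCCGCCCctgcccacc

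The stretch between Col4a4 and Col4a3 held none of the 3 motifs. The 30 bases shown for Col4a2 were a part of its window set by hand around a CCAAT, so the pairs are not compared by motif. The Col1a2 stretch held GGGCGG 2 times, the Col3a1 stretch TATAAA 1 time, the Col8a1 stretch the reverse form CCGCCC 4 times, and the Col18a1 stretch CCGCCC 3 times and ATTGG 1 time. Beyond its printed bases, which end at position -126, the Col1a2 window also held CCAAT at -109 and ATTGG at 1. The printed Col1a2 bases lie within the GENCODE gene, which starts at chr6:4504814. Over the 38 collagen windows, 13 held CCAAT, 5 held TATAAA and 23 held GGGCGG. Among all 32851 windows of the same length, 37.4% held CCAAT, 13.6% TATAAA and 35.7% GGGCGG. A match of letters is a description of the window and shows no binding.

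Collagen RNA was more abundant in both niche groups than in distal libraries, and least abundant in cultured 4T1 cells. Summed over the 44 genes, abundances in TPM, a unit scaled for both library size and transcript length, were 259.9 ± 23.7 (SD, n = 3) in 4T1 in vitro, 384 ± 62.4 in 4T1 in vivo, 1056 ± 137 in distal, 4835 ± 329 in niche and 4979 ± 1055 in shSox9 libraries. The classes took very different shares of these sums. Fibrillar collagens made up 3864 ± 299.7 of the niche TPM and 631 ± 76.9 of the distal TPM, but 5.51 ± 2.13 in 4T1 in vitro and 11.3 ± 1.49 in 4T1 in vivo. Basement membrane collagens spanned a narrower range, from 117 ± 8.73 TPM in 4T1 in vitro through 147 ± 31.4 in distal, 172 ± 42.6 in 4T1 in vivo and 288 ± 14.1 in niche to 318 ± 27.2 in shSox9 libraries. The other collagens summed to 138 ± 17.8, 201 ± 19.0, 278 ± 30.1 and 684 ± 26.8 TPM in 4T1 in vitro, 4T1 in vivo, distal and niche libraries. In shSox9 libraries fibrillar collagens summed to 3864 ± 938 TPM and the other collagens to 798 ± 102 TPM. These sums are not scaled between groups. On log2(TPM + 0.5) the median of all tested genes was itself 0.53 higher in niche and 0.5 higher in shSox9 than in distal libraries.

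Type I and type III collagen, the main fibril formers of lung connective tissue, led the epithelial libraries. In the niche libraries Col1a1 stood at 1753 ± 198 TPM, Col3a1 at 1411 ± 69.6 and Col1a2 at 506 ± 50.6, followed by the beaded filament chain Col6a1 at 292.5 ± 17.5 (SD, n = 3). In distal libraries Col3a1 (266 ± 23.2 TPM) and Col1a1 (230 ± 36.7) differed by about their spread, and Col6a1 (138 ± 20.4) and Col1a2 (106.5 ± 11.45) came next. The order in 4T1 cells was another. In culture Col8a1, a short-chain collagen of vessel walls and cornea, was highest at 94.9 ± 15.8 TPM, followed by Col18a1, a proteoglycan core of basement membranes, at 54.0 ± 7.14, Col4a2 at 31.4 ± 2.61 and Col4a1 at 26.9 ± 2.72. In 4T1 cells from lung Col18a1 led at 127 ± 36.1 TPM, and Col8a1 (74.1 ± 5.97) and Col6a1 (57.0 ± 12.4) followed. Of the 44 collagens, 10 had a mean of at least 1 TPM in 4T1 in vitro, 11 in 4T1 in vivo, 28 in distal, 26 in niche and 28 in shSox9 libraries. The 10 members with too few counts for a test in the epithelial libraries were Col2a1, Col4a6, Col6a4, Col9a1, Col9a2, Col9a3, Col19a1, Col22a1, Col25a1 and Col26a1, and none of them reached a mean of 1 TPM in any group.

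**Figure D1:**
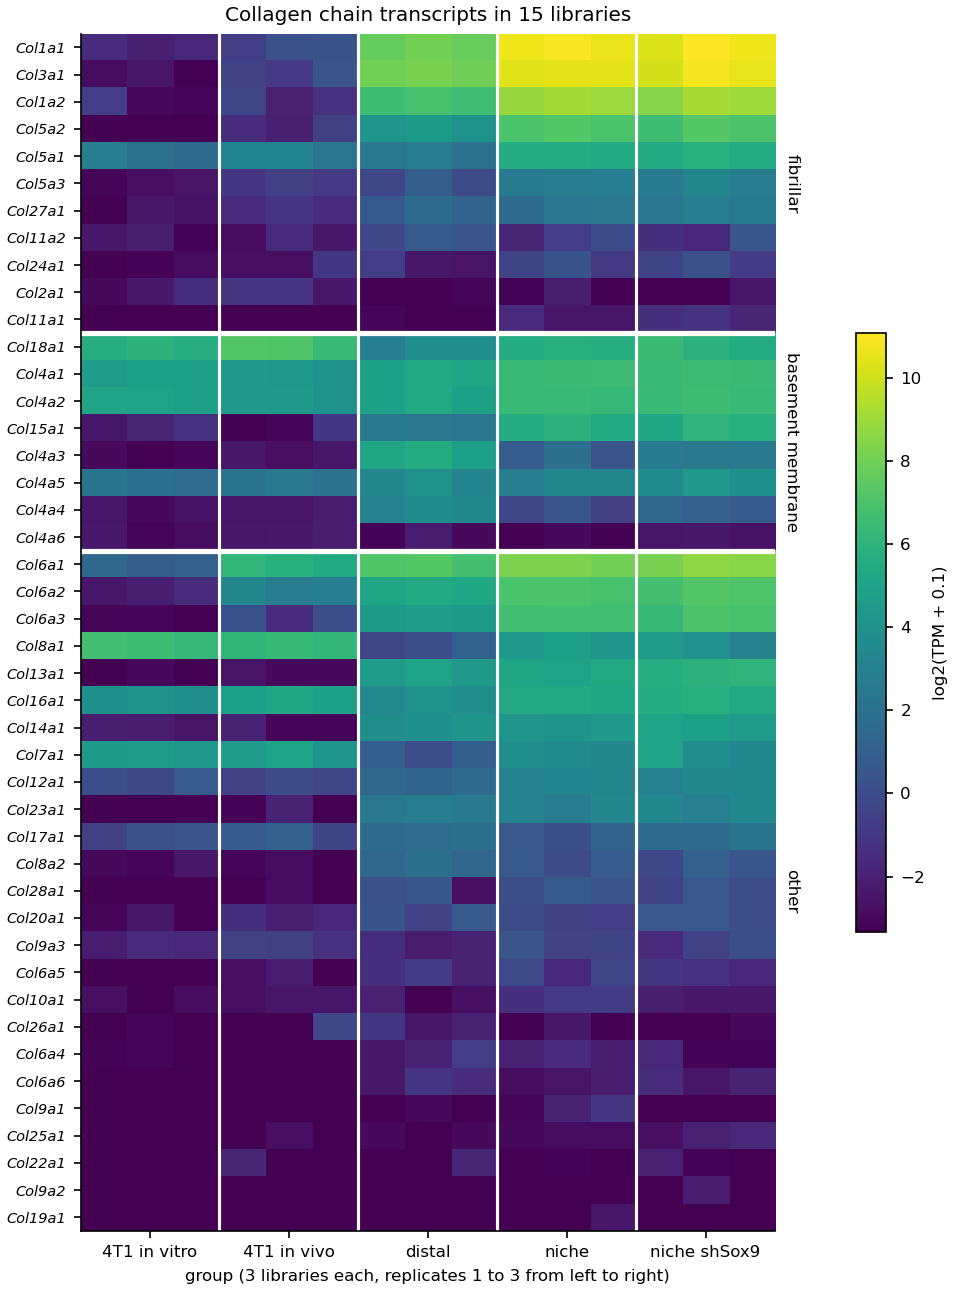
Level of the 44 collagen genes (rows, by class) in the 15 libraries (columns, 3 per group), as log2(TPM + 0.1). Fibrillar collagens are bright in the epithelial libraries and brightest in both niche groups, while the 4T1 columns are bright for Col18a1, Col4a1, Col4a2, Col8a1, Col7a1 and Col16a1.

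Between niche and distal epithelium, most tested collagens were higher in the niche. Of the 44 genes, 34 passed the filter on low counts, and 19 of these were higher and 8 lower at an edgeR adjusted p below 0.05. Among all 17640 genes tested, 28.5% were higher and 25.8% lower (54.3% in either direction). By class, 7 of 10 tested fibrillar collagens were higher and 1 lower (median log2 fold change 1.90), 4 of 7 basement membrane collagens were higher and 3 lower (median 0.69), and 8 of 17 others were higher and 4 lower (median 0.33), beside a median of 0.02 over all genes. On the unscaled TPM values the median of all genes was 0.53 higher in the niche, so differences are given after TMM scaling of the counts.

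The chains of type I, III and V collagen rose together. Col1a1 (chr11:94936224-94953042, plus strand), which gives most chains of type I collagen, had 1185, 1384 and 1150 CPM in distal and 5855, 7025 and 6087 CPM in niche libraries. Every niche library lay above every distal library, and the log2 fold change was 2.35 ± 0.20 (SE, adjusted p = 3.7e-06). Its partner Col1a2 had 486.5, 534 and 484 CPM in distal and 1455, 1762 and 1605 CPM in niche libraries (1.68 ± 0.18, adjusted p = 1.8e-05). Col3a1, the chain of type III collagen, which mixes with type I in extensible tissue, had 984, 1077 and 932 against 3425, 3626 and 3805 CPM (1.86 ± 0.18, adjusted p = 7.4e-06). Groups did not overlap for any of these 3 genes. Type V collagen is a minor component that starts fibrils and limits their diameter. Col5a1 rose from 30.8, 34.6 and 25.0 to 170, 182 and 174 CPM, the largest log2 change among the called fibrillar chains at 2.54 ± 0.15 (adjusted p = 2.1e-07). Its partners Col5a2 (2.28 ± 0.18, adjusted p = 1.6e-06) and Col5a3 (1.94 ± 0.27, adjusted p = 0.00012) rose as well, from means of 112 ± 14.67 and 6.27 ± 2.73 CPM to 541 ± 51.2 and 24.2 ± 2.64 CPM (SD, n = 3). The low-abundance fibrillar collagens did not move as a block. Col24a1 rose from 0.615 ± 0.166 to 1.54 ± 0.0971 CPM, and Col11a2, a chain of cartilage type XI collagen, fell from 3.23 ± 1.20 to 0.968 ± 0.683 CPM. Col27a1 had 6.47 ± 1.56 and 7.51 ± 1.78 CPM and was not called (0.21, 95% interval -0.34 to 0.76), although limma on log2(TPM + 0.5) called it higher (adjusted p = 0.026). Calls for Col24a1 were lost without distal replicate 2 or 3 or niche replicate 1 (adjusted p = 0.06 to 0.073), and calls for Col11a2 without distal replicate 2 or 3 or niche replicate 1 or 2 (0.096 to 0.12).

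Most markers of the cells that usually make these fibrils were not called higher in the niche. Among all genes tested, 28.5% were higher and 25.8% lower in the niche. Of the 12 fibroblast markers, 1 was higher and 6 were lower (median log2 fold change -0.27). Their summed level was 3690 to 4666 CPM in distal and 2545 to 3326 CPM in niche libraries. Pdgfra stood at 373 to 586 CPM in distal and 668 to 736 CPM in niche libraries, and Tcf21 at 46.9 to 75.0 against 20.8 to 40.7 CPM. Of 10 mural cell markers, which mark pericytes and smooth muscle, 3 were higher and 4 lower (median -1.47). The summed level of the mural list was nonetheless 104.6 to 193.1 CPM in distal and 213.5 to 239.8 CPM in niche libraries. Pdgfrb alone stood at 34.6 to 41.1 CPM in distal and 152 to 178 CPM in niche libraries. Endothelial markers were higher in 2 and lower in 0 of 12. The part that a change in cell makeup has in the collagen differences was not tested.

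Basement membrane collagens split by chain, and the split followed the gene pairs shown above. Col4a1 and Col4a2, the chains of the type IV network found under nearly all epithelium and endothelium, were higher in the niche. Col4a1 had 114, 148 and 126 CPM in distal and 223, 257 and 253 CPM in niche libraries (log2 fold change 0.92 ± 0.12, adjusted p = 7.2e-05), and Col4a2 had 187, 235 and 173 against 329, 327 and 306 CPM (0.69 ± 0.12, adjusted p = 0.00066). Neither gene's groups overlapped. Col4a3 and Col4a4, whose chains form the network of alveolar and glomerular basement membranes, fell most of all tested collagens. Col4a3 had 292, 357 and 221 CPM in distal and 8.80, 20.1 and 7.02 CPM in niche libraries, a log2 fold change of -4.58 ± 0.35 (adjusted p = 1.4e-06), or 24.0-fold lower. Col4a4 had 70.9, 87.5 and 78 against 4.08, 5.46 and 2.06 CPM (-4.32 ± 0.26, adjusted p = 2.9e-07, 20-fold lower). The third chain of that network, Col4a5, had 50.5, 72.3 and 40.6 CPM in distal and 23.6, 33.0 and 34.3 CPM in niche libraries (-0.85 ± 0.24, adjusted p = 0.012), so it fell far less than its partners. Its call was lost without distal replicate 2 (adjusted p = 0.061) or niche replicate 1 (0.052). Its head-to-head neighbour Col4a6 stayed below the filter, with at most 0.613 CPM in any epithelial library.

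The fall of Col4a3 and Col4a4 went with a fall of alveolar markers. Of 12 markers of alveolar type 1 cells, the flat cells of gas exchange, 11 were lower and 0 higher in the niche (median log2 fold change -3.45), and of 12 markers of alveolar type 2 cells, which make surfactant, 12 were lower (median -4.37). Among all genes tested, 25.8% were lower. Ager stood at 3502 to 3635 CPM in distal and 148 to 246 CPM in niche libraries. Whether the chains fell within alveolar cells or with their number was not tested.

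The remaining basement membrane collagens, which carry heparan or chondroitin sulfate and link the membrane to the tissue beneath, rose. Col15a1 had 20.3, 18.3 and 19.9 CPM in distal and 112.5, 150.1 and 112 CPM in niche libraries (log2 fold change 2.67 ± 0.20, adjusted p = 1.2e-06). Col18a1, from whose end endostatin is cut, had 27.5, 51.8 and 55.8 against 148, 151 and 152 CPM (1.74 ± 0.26, adjusted p = 0.00017). Both sets of niche libraries lay above all distal libraries. Col18a1 overlaps Slc19a1 on the opposite strand, and since no source used here states whether counting used strand, reads from the shared part cannot be told apart.

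**Figure D2:**
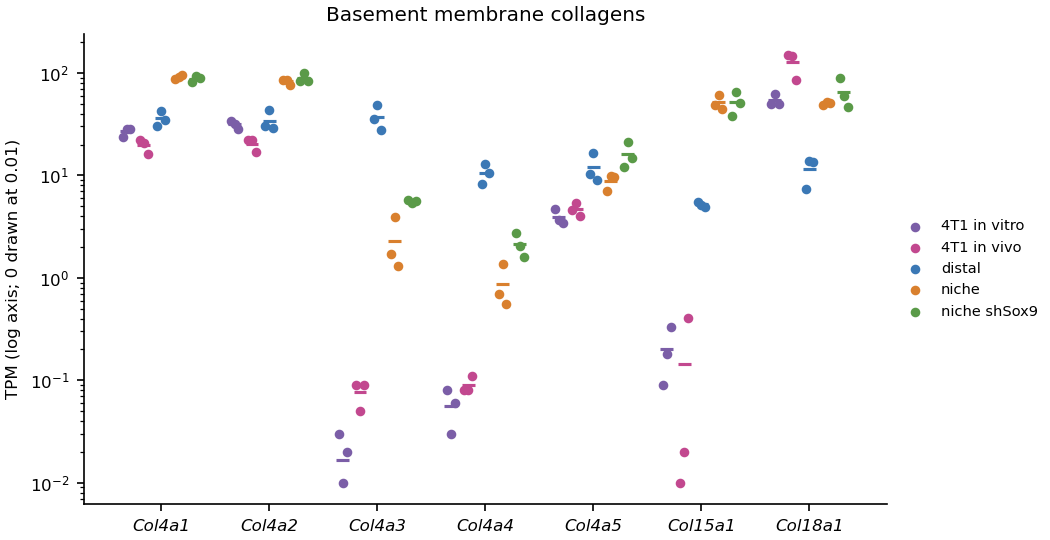
TPM per library (points, log axis) of 7 basement membrane collagens in the 5 groups, with horizontal lines at group means and values of 0 drawn at 0.01. Col4a3 and Col4a4 are highest in distal libraries and Col4a1, Col4a2 and Col15a1 in both niche groups, while Col18a1 is highest in 4T1 cells from lung.

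Type VI collagen makes beaded filaments around cells from 1 chain each of Col6a1, Col6a2 and Col6a3, and its chains rose by different amounts. Col6a3 had 85.7, 91.3 and 85.6 CPM in distal and 268, 310.1 and 281 CPM in niche libraries (log2 fold change 1.71 ± 0.16, adjusted p = 7.1e-06). Col6a2 had 136.5, 156 and 144 against 309, 322 and 297 CPM (1.09 ± 0.13, adjusted p = 3.5e-05). Col6a1, the most abundant of them, had 570.0, 537 and 433 against 731.5, 744 and 700.1 CPM (0.50 ± 0.15, adjusted p = 0.017), and this call was lost without distal replicate 3 (0.069) or niche replicate 2 (0.051). Groups did not overlap for any of the 3 chains. Col6a6, a chain that can take the place of Col6a3, fell from 1.93 ± 1.11 to 0.409 ± 0.233 CPM (SD, n = 3), with the call lost without distal replicate 2 or niche replicate 1 or 2 (adjusted p = 0.052 to 0.066). Col6a5 was not called, at 1.73 ± 0.707 and 1.65 ± 0.345 CPM.

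The largest rises among the other collagens were those of Col8a1 and Col7a1. Col8a1 had 3.34, 4.36 and 9.26 CPM in distal and 63.4, 84.5 and 55.6 CPM in niche libraries (log2 fold change 3.6 ± 0.39, adjusted p = 1.8e-05), whereas Col8a2, which pairs with it in hexagonal lattices, fell from 11.3, 13.4 and 10.3 to 3.78, 2.25 and 4.48 CPM (-1.74 ± 0.35, adjusted p = 0.0014). The pair thus moved in opposite directions, with no overlap between the groups for either gene. Col7a1, the chain of the anchoring fibrils that fasten epithelium to connective tissue, had 2.04, 1.70 and 3.61 against 21.3, 18.3 and 13.02 CPM (2.85 ± 0.40, adjusted p = 0.00012). Collagens that coat fibrils were divided. Col12a1 (10.6 ± 0.863 to 27.2 ± 1.16 CPM, log2 fold change 1.35 ± 0.16) and Col16a1 (32.7 ± 5.84 to 70.4 ± 8.18 CPM, 1.11 ± 0.14) rose, with adjusted p = 3.3e-05 and 4.8e-05. Col14a1 was not called at 69.2 ± 8.76 and 57.1 ± 7.50 CPM (-0.28, 95% interval -0.54 to -0.02), and its sign turned on log2(TPM + 0.5), at 0.3. DESeq2 called it lower (-0.32, adjusted p = 0.026). So did edgeR with DESeq2 size factors (0.032), a replicate block (0.045) or only the 6 libraries of both groups (0.029), and without niche replicate 3 (0.021). Col20a1 fell from 2.64 ± 0.414 to 1.34 ± 0.311 CPM, a call lost without distal replicate 3 (adjusted p = 0.075) or niche replicate 1 (0.098). Of the collagens that span the membrane, Col17a1, a part of the hemidesmosomes of basal epithelium, fell from 9.89, 16.2 and 12.2 to 3.401, 3.56 and 5.27 CPM (-1.66 ± 0.25, adjusted p = 0.00021). Col13a1 (57.0 ± 9.57 and 58.5 ± 8.75 CPM) and Col23a1 (30.2 ± 1.48 and 29.7 ± 6.54 CPM) were not called, nor were Col28a1 (2.28 ± 1.79 and 2.90 ± 0.814 CPM) and the fibrillar chain Col11a1 (2 and 23 counts over the 3 libraries of each group). Col10a1, the collagen of hypertrophic cartilage, was called higher at 0.191 ± 0.221 and 0.782 ± 0.211 CPM, but leaving out any library other than distal replicate 1 ended the call (adjusted p = 0.064 to 0.13), and it overlaps Nt5dc1 on the opposite strand. Leaving out distal replicate 2 left 5 collagens called lower in the niche and leaving out niche replicate 1 left 4, in place of 8.

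The rises of Col8a1, Col7a1 and Col18a1 can be set beside the carcinoma panel, since these 3 genes are also among the leading collagens of 4T1 cells. In niche libraries Col8a1 stood at 28.4%, 37.1% and 23.5% of its mean plain CPM in 4T1 cells from lung, Col7a1 at 66.7%, 56.1% and 38.5%, and Col18a1 at 38.6%, 38.8% and 37.6%. The carcinoma panel stood at 23.0%, 21.6% and 15.4% in the same 3 libraries. In distal libraries Col8a1 was at 1.15%, 1.63% and 3.38%, Col7a1 at 4.93%, 4.46% and 9.21%, and Col18a1 at 5.54%, 11.3% and 11.9%. For Col1a1 and Col3a1 no such share is given, because niche libraries held far more of them than 4T1 cells did. The part of 4T1 RNA in the niche values of Col8a1, Col7a1 and Col18a1 was not tested.

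**Figure D3:**
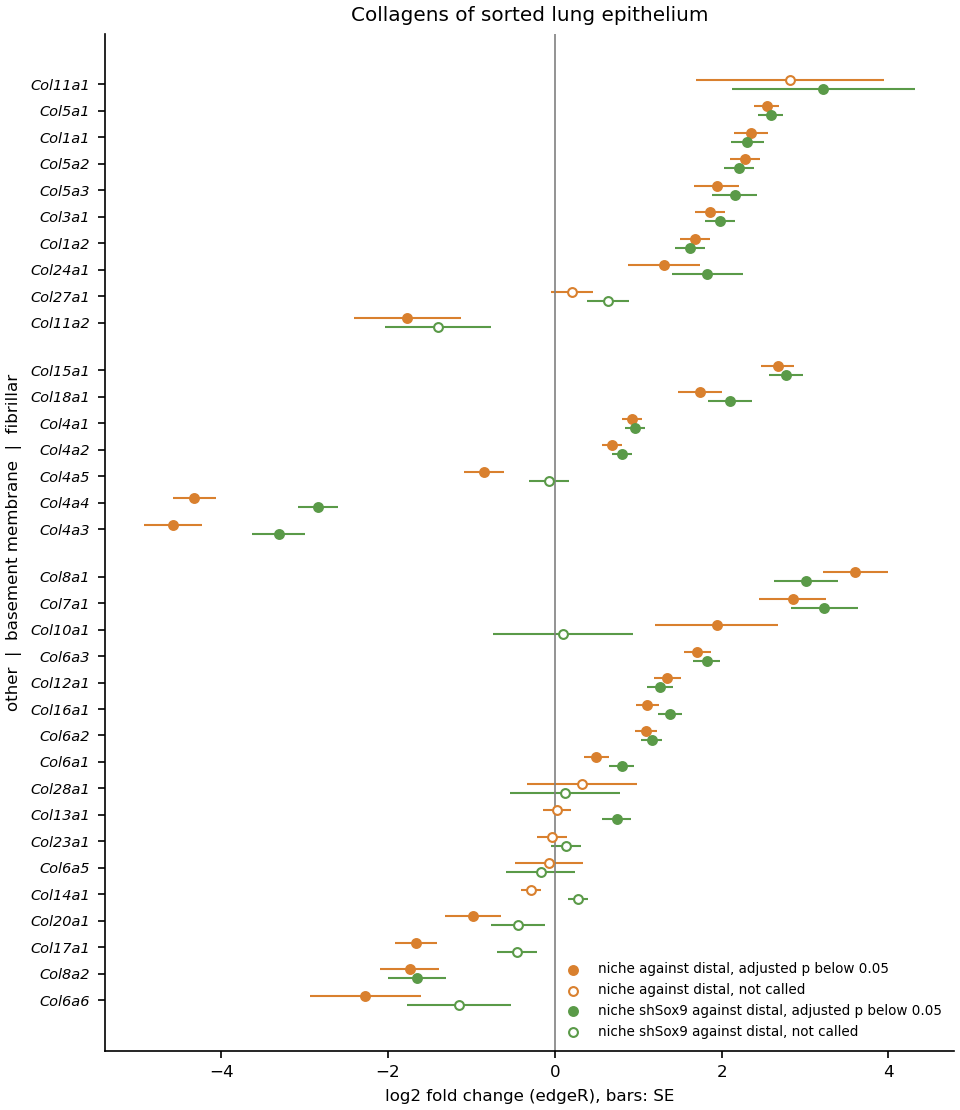
Log2 fold change (edgeR, bars are SE) of the 34 tested collagens in niche (orange) and shSox9 niche (green) epithelium, each against the same 3 distal libraries, by class. Filled points passed an adjusted p of 0.05. Col1a1, Col1a2, Col3a1, Col5a1 and Col5a2 lie between 1.62 and 2.59 in both comparisons, and Col4a3 and Col4a4 lie farthest to the left.

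Partner chains did not keep the same proportions. Per length, the ratio of Col1a1 to Col1a2 was 2.13, 2.28 and 2.04 in distal and 3.54, 3.52 and 3.33 in niche libraries, while 2 copies of the Col1a1 chain join 1 of Col1a2 in the usual type I molecule. The ratio of Col6a1 to Col6a3 was 6.28, 5.84 and 5.01 against 2.85, 2.79 and 2.58, and that of Col6a1 to Col6a2 was 4.11, 3.38 and 2.96 against 2.30, 2.25 and 2.31. The ratio of Col3a1 to Col1a1 was 1.23, 1.08 and 1.19 against 0.807, 0.73 and 0.895. These 4 ratios did not overlap between the groups. In contrast, Col4a1 to Col4a2 was 1.07 ± 0.11 in distal and 1.11 ± 0.12 in niche libraries (SD, n = 3). Over the 5 ratios, the exact two-sided permutation test gave p = 0.1 for the first 4, the smallest that 3 against 3 libraries allow (adjusted 0.125), and 0.5 for Col4a1 to Col4a2, so no ratio could pass 0.05. RNA ratios do not give the ratio of the chains as proteins.

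**Figure D4:**
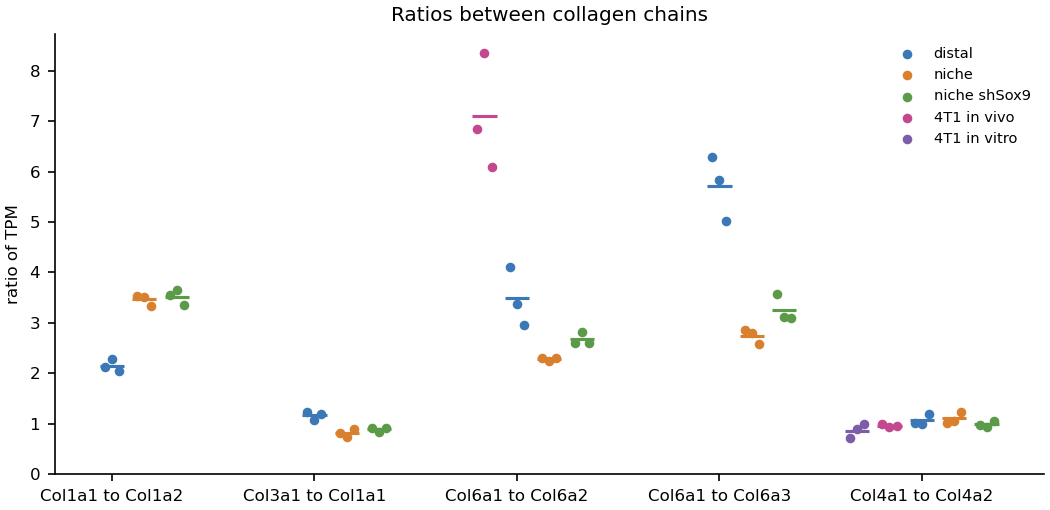
Ratio of TPM between partner or co-occurring collagen chains in each library (points), with lines at group means, for groups in which both genes had at least 1 TPM in every library. Col1a1 to Col1a2 is near 2.15 in distal and near 3.5 in both niche groups, and Col4a1 to Col4a2 stays near 1 throughout.

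The libraries labelled shSox9 were compared with the control niche libraries, as the titles and the treatment label pair them. The collagens that passed the test were Col4a3, Col4a4, Col4a5, Col13a1, Col14a1 and Col17a1, all higher in the libraries labelled shSox9. Of 34 tested, 6 were higher and 0 lower by edgeR, beside 9.68% and 10.8% of all genes (20.5% in either direction). DESeq2 also called 0 lower, and 7 collagens had an unadjusted p below 0.05 in either direction, the 6 called and Col10a1 (-1.84 ± 0.70, adjusted p = 0.089). Col4a4 rose from 4.08, 5.46 and 2.06 to 10.5, 12.4 and 10.1 CPM (log2 fold change 1.48 ± 0.25, adjusted p = 0.0021), and Col4a3 from 8.80, 20.1 and 7.02 to 28.7, 28.0 and 31.4 CPM (1.27 ± 0.32, adjusted p = 0.016). Their partner Col4a5 rose from 30.3 ± 5.86 to 52.1 ± 14.3 CPM (0.78 ± 0.24, adjusted p = 0.042). Outside the basement membrane, Col17a1 (1.20 ± 0.25, adjusted p = 0.0064), Col13a1 (0.71 ± 0.17, adjusted p = 0.014) and Col14a1 (0.56 ± 0.12, adjusted p = 0.0063) rose, to 9.36 ± 1.75, 95.6 ± 20.7 and 84.4 ± 1.89 CPM. Libraries of the groups did not overlap for these 6 genes, which the test picked from the same libraries. They did not overlap either for the uncalled Col10a1, Col16a1 and Col20a1. Leaving out niche replicate 1 or shSox9 replicate 3 left 3 of the 6 calls, with adjusted p = 0.07 and 0.052 for Col4a3. The call of Col13a1 was also lost without niche replicate 2 (0.062), and that of Col4a5 without any of the 6 libraries other than shSox9 replicate 1 (0.06 to 0.16).

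No fibrillar collagen passed the test between these groups. Col1a1 had 4382, 7678 and 6481 CPM in shSox9 libraries, which spanned the control niche values of 5855 to 7025 CPM (log2 fold change -0.04, 95% interval -0.46 to 0.39). The interval was -0.45 to 0.33 for Col1a2 and -0.25 to 0.5 for Col3a1, on the same log2 scale. Col8a1 had 63.5, 45.1 and 27.0 CPM and was not called (-0.59, 95% interval -1.32 to 0.14), except without a filter on low counts (adjusted p = 0.033). Markers of several cell types moved with the label, where 9.68% of all genes were higher and 10.8% lower. All 12 alveolar type 2 and 5 of 12 alveolar type 1 markers were higher, 6 of 12 fibroblast markers were higher (summed 3670 to 5671 CPM), and 10 of 12 leukocyte markers were lower. Their part in the 6 collagen changes was not tested.

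Set against the same distal libraries, the shSox9 libraries had 20 of 34 collagens higher and 3 lower, beside 21.7% and 22% of all genes. The fibrillar chains had values close to those of the control niche, with Col1a1 at 2.31 ± 0.20, Col3a1 at 1.98 ± 0.18, Col5a1 at 2.59 ± 0.15 and Col5a2 at 2.21 ± 0.18 (log2 fold change, SE). Col4a3 (-3.31 ± 0.32, adjusted p = 1.4e-05) and Col4a4 (-2.84 ± 0.24, adjusted p = 5.4e-06) stayed lower than in distal libraries, 9.92-fold and 7.17-fold. Col8a2 was also lower (-1.65 ± 0.35, adjusted p = 0.0025). Col4a5 (-0.07, 95% interval -0.6 to 0.46) and Col17a1 (-0.45, 95% interval -0.98 to 0.08) were not called, and both had a positive sign on log2(TPM + 0.5), at 0.43 and 0.06. Col13a1 was higher (0.74 ± 0.17, adjusted p = 0.0048). Col11a1, the other chain of type XI collagen, was called higher with 29 counts in the shSox9 and 2 in the distal libraries, a ratio of 10.6 with a 95% counting interval of 2.69 to 91.9. That call was lost without distal replicate 2 or 3 or shSox9 replicate 1 or 2 (adjusted p = 0.063 to 0.11). Since both niche groups share these distal libraries, no overlap between the comparisons is given.

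Genes that fold, cut and crosslink collagen were examined as lists. Of 20 genes for folding and modification of the chains in the endoplasmic reticulum, 13 were higher and 3 lower in niche against distal epithelium (median log2 fold change 0.73), beside 28.5% higher and 25.8% lower among all genes. P4ha3, a subunit of the prolyl hydroxylase that stabilises the helix, rose from 4.83 ± 1.07 to 38.2 ± 3.05 CPM (2.98 ± 0.18, adjusted p = 3.2e-07), the chaperone Serpinh1 from 834 ± 54.0 to 2567 ± 665 CPM (1.62 ± 0.21) and Fkbp10 from 44.0 ± 6.28 to 147 ± 10.4 CPM (1.74 ± 0.16), while the galactosyltransferase Colgalt2 fell (-1.95 ± 0.30). Of 13 tested genes for procollagen processing and crosslinking, 9 were higher and 1 lower (median 1.23), among them the lysyl oxidase family members Loxl3 (2.14 ± 0.15) and Loxl4 (2.21 ± 0.42), the peroxidase Pxdn, which crosslinks type IV collagen (1.92 ± 0.14), and the procollagen peptidase Adamts14 (2.25 ± 0.38). Of 10 other components of fibrils, 7 were higher and 0 lower (median 1.14). Tnc, a matrix protein of wounds, rose from 47.6 ± 5.70 to 706 ± 7.63 CPM (3.89 ± 0.12, adjusted p = 2.6e-08) and Fn1, fibronectin, from 962 ± 191 to 3232 ± 106 CPM (1.75 ± 0.16). Of the basement membrane partners 6 of 15 were higher and 2 lower, which together is near the 54.3% of all genes called, and the laminin chain Lamb1 (0.97 ± 0.12) and the linker Nid1 (1.29 ± 0.17) rose and Lamc3 fell (-1.84 ± 0.22). Of 10 tested collagen receptors 6 were higher and 2 lower, and Itga2 rose from 1.48 ± 0.492 to 10.9 ± 2.76 CPM (2.88 ± 0.33). The leukocyte receptor Lair1 rose too (2.85 ± 0.53), beside 10 of 12 leukocyte markers higher. Of 11 genes for collagen breakdown and its inhibitors, 8 were higher and 1 lower (median 1.56), with the inhibitor Timp1 at 3.21 ± 0.16, Mmp9 at 3.59 ± 0.49 and the collagenase Mmp13 at 3.05 ± 0.35. In 4T1 cells from lung Mmp9 stood at 134 ± 8.42 CPM and Mmp13 at 25.0 ± 5.13 CPM. Itga2 was also higher in cultured 4T1 than in distal libraries (log2 fold change 4.01 ± 0.32). The part of 4T1 RNA in the niche values of these genes was not tested.

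Between shSox9 and control niche libraries, where 9.68% of all genes were higher and 10.8% lower, folding genes were higher in 2 and lower in 1 of 20, processing genes higher in 2 and lower in 2 of 13, and breakdown genes higher in 2 and lower in 2 of 11. Mmp13 fell from 45.4 ± 5.99 to 11.1 ± 5.16 CPM (log2 fold change -2.03 ± 0.32, adjusted p = 0.0014) and Timp1 from 287 ± 53.3 to 156 ± 17.2 CPM (-0.88 ± 0.14, adjusted p = 0.0016). Of the basement membrane partners 5 of 15 were higher and 0 lower, led by Lamc3 (1.51 ± 0.22, adjusted p = 0.00089) and Lama2 (0.86 ± 0.17, adjusted p = 0.0054).

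Among 4T1 libraries, Col6a1, Col6a2 and Col6a3 of type VI collagen were higher in cells from lung than in culture, and Col4a1 and Col4a2 of type IV were lower. Of the 44 collagens 20 could be tested, and 11 were higher and 3 lower in vivo, beside 27% and 24% of the 14022 genes tested. By class, 6 of 7 fibrillar collagens were higher and 0 lower, 1 of 5 basement membrane collagens was higher and 2 were lower, and 4 of 8 others were higher and 1 lower. Col6a1 had 7.65, 5.00 and 5.87 CPM in culture and 186.5, 145 and 127 CPM in lung (log2 fold change 4.64 ± 0.20, adjusted p = 4.6e-07), a 24.9-fold rise. Col6a2 rose from 0.244, 0.382 and 0.722 to 26.6, 17.01 and 20.6 CPM (5.56 ± 0.31, adjusted p = 1.7e-06). Col6a3, the third chain of the same molecule, reached only 1.33, 1.30 and 1.29 CPM (4.42 ± 0.60, adjusted p = 0.00031, from 4 counts in culture). The ratio of Col6a1 to Col6a2 per length was 7.10 ± 1.2 in these libraries (SD, n = 3), against 3.48 ± 0.58 in distal epithelium.

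The highest collagens of the carcinoma cells moved less. Col18a1 rose from 157, 208.3 and 165 to 456, 462 and 284 CPM (1.18 ± 0.18, adjusted p = 0.00063) and Col16a1 from 32.5 ± 2.94 to 58.0 ± 6.498 CPM (0.83 ± 0.11, adjusted p = 0.00032). Col4a1 fell from 87.2, 97.7 and 93.7 to 58.8, 65.0 and 49.4 CPM (-0.69 ± 0.11, adjusted p = 0.00077) and Col4a2 from 144, 140.3 and 132 to 94.3, 90.6 and 75.0 CPM (-0.68 ± 0.10, adjusted p = 0.00049), by nearly equal amounts. Col8a1, the leading collagen in culture, fell from 317 ± 41.6 to 234 ± 15.3 CPM (-0.44 ± 0.11, adjusted p = 0.0084), but not past the threshold with all 15 libraries in the fit (0.23) or on log2(TPM + 0.5) (0.058). The 6 uncalled chains were Col5a1, Col4a5, Col7a1, Col12a1, Col4a4 and Col17a1. Col5a1 had 19.5 ± 0.533 and 24.7 ± 5.13 CPM (0.34, 95% interval 0.01 to 0.68), and it passed without in vivo replicate 3 (adjusted p = 0.012). Col4a5 had 14.4 ± 2.22 and 15.8 ± 3.30 CPM (0.13, -0.26 to 0.53). Col7a1 had 41.7 ± 5.51 and 33.4 ± 9.17 CPM (-0.32, -0.75 to 0.11), with the opposite sign on log2(TPM + 0.5), at 0.12, and a call without a filter on low counts (adjusted p = 0.026). Col12a1 had 3.04 ± 0.592 and 2.08 ± 0.0332 CPM (-0.54, -1.12 to 0.03), and it was called with all 15 libraries in the fit (adjusted p = 0.032). Col4a4 and Col17a1 stayed below 3 CPM in every 4T1 library.

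Fibrillar collagens were called higher in vivo at very low levels. Col1a1 had 0.39, 0.555 and 0.361 CPM in culture and 2.09, 4.10 and 4.94 CPM in lung (3.05 ± 0.41, adjusted p = 0.00029), Col3a1 rose from 0.0603 ± 0.0763 to 1.38 ± 0.807 CPM (4.47 ± 0.78, adjusted p = 0.0012) and Col1a2 from 0.179 ± 0.141 to 1.29 ± 0.883 CPM (2.87 ± 0.69, adjusted p = 0.0069, but 0.34 on log2(TPM + 0.5)). Col5a2 had 0 counts in culture and 43 in lung, at least 17.6-fold higher with the floor set at 3 counts for the whole group. Col5a3 (3.30 ± 0.47) and Col27a1 (2.74 ± 0.67) stayed below 2.3 CPM. Libraries of 4T1 cells from lung also held a little RNA of host cells. Sftpc, a surfactant gene, stood at 46.9, 51.1 and 86.4 CPM in lung and 3.12, 1.60 and 1.17 CPM in culture. In vivo 8 of 10 tested leukocyte markers and 5 of 7 tested fibroblast markers were higher, beside 27% of all genes.

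The size of that admixture can be set beside the collagens. A panel of 226 non-collagen genes, with at least 20 CPM in every distal and niche library and at most 0.1 CPM in every cultured 4T1 library, stood in the 4T1 libraries from lung at 1.1%, 1.57% and 3.26% of its summed niche level. For 8 fibroblast markers with at most 0.1 CPM in culture the shares were 0.253%, 0.35% and 0.493%. The median share of single genes was lower, at 0.383%, 0.558% and 0.847% for the panel of 226 genes. For the fibroblast markers it was 0.203%, 0.342% and 0.397%. Col1a1 was at 0.0323%, 0.0641% and 0.0756% of its niche level, Col3a1 at 0.0248%, 0.0246% and 0.0618%, and Col6a3 at 0.453%, 0.449% and 0.435%. Col6a1, in contrast, was at 25.1%, 19.7% and 17% and Col6a2 at 8.4%, 5.43% and 6.45%, above the shares of both panels in all 3 libraries. The shares of Col1a1 and Col3a1 lay below those of both panels in all 3 libraries. Other fibrillar chains called higher in vivo stood above both panels, with Col5a3 at 6.21%, 9.02% and 7.33% and Col27a1 at 6.67%, 9.91% and 9.73%, whereas Col5a2 (0.12%, 0.11% and 0.173%) and Col1a2 (0.137%, 0.0308% and 0.0679%) stood below both. Neither panel was chosen for endothelial cells. Of 8 tested endothelial markers 6 were higher in vivo and 1 lower, beside 27% and 24% of all genes. Cdh5 stood at 2.86, 3.75 and 3.54 CPM in 4T1 libraries from lung and 12.3 to 12.7 CPM in niche libraries. Pecam1 stood at 1.63, 3.45 and 3.06 against 16.2 to 19.1 CPM. The part of host RNA in these collagen rises was not tested.

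**Figure D5:**
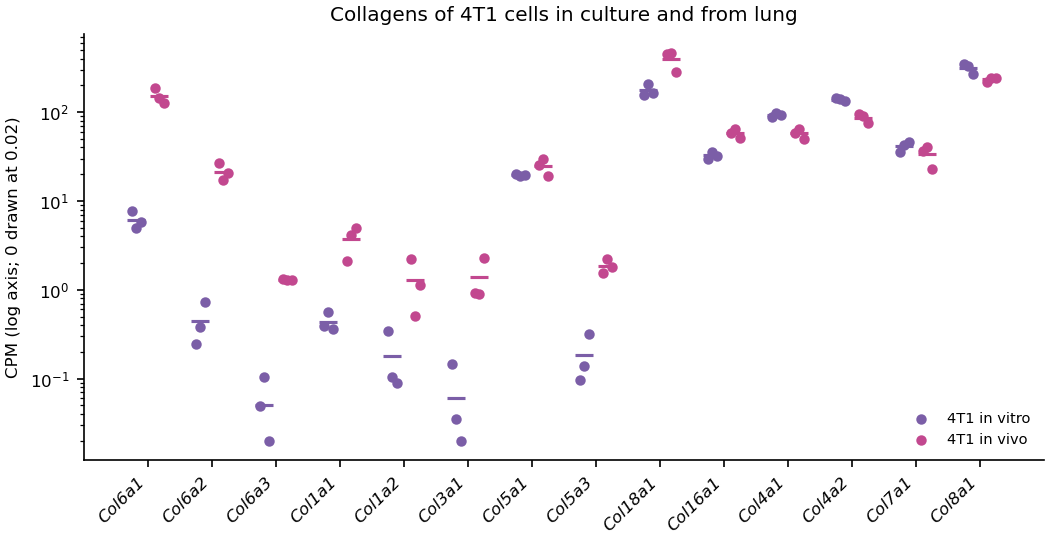
CPM per library (points, log axis) of 14 collagens in 4T1 cells from culture (purple) and from lung (pink), with lines at group means and values of 0 drawn at 0.02. Col6a1 and Col6a2 rise to 127 to 186.5 and 17.01 to 26.6 CPM, Col4a1 and Col4a2 fall, and Col1a1, Col1a2 and Col3a1 stay below 5 CPM.

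Genes that act on collagen changed unevenly in the carcinoma cells. Among all genes tested, 27% were higher and 24% lower in vivo. For 17 tested folding genes 7 were higher and 4 lower. The prolyl hydroxylase subunits parted, with P4ha1 (83.3 ± 13.9 to 41.6 ± 6.47 CPM, log2 fold change -1 ± 0.15) and P4ha2 (42.9 ± 0.787 to 15.3 ± 5.07 CPM, -1.49 ± 0.19) lower and P4ha3 (1.61 ± 0.509 to 6.55 ± 1.38 CPM, 2.02 ± 0.28) higher. Of 9 processing genes 5 were higher and 2 lower. Tgm2, a transglutaminase, rose from 22.2 ± 8.24 to 233 ± 47.8 CPM (3.39 ± 0.27, adjusted p = 1.5e-05) and Loxl3 from 19.9 ± 2.16 to 104 ± 7.19 CPM (2.38 ± 0.11, adjusted p = 7.7e-07), while Loxl4 fell (-1.09 ± 0.14). Of 9 receptors 6 were higher and 2 lower, including the integrin chain Itga1, which rose from 4.48 ± 0.446 to 28.8 ± 2.71 CPM (2.68 ± 0.14, adjusted p = 1e-06), and the collagen-activated kinase Ddr2, which rose from 118 ± 22.6 to 217 ± 1.72 CPM (0.88 ± 0.13). Mmp9 (2.61 ± 0.23) and Mmp13 (2.34 ± 0.35) were among 5 of 9 breakdown genes that were higher. Of 10 tested basement membrane partners 2 rose and 2 fell, and the laminin chain Lamb3 was among those that fell (-1.20 ± 0.20). Of 8 tested components of fibrils 6 were higher and 1 lower.

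Cultured 4T1 cells were set against distal libraries to compare the carcinoma line with sorted lung epithelium, whose libraries also held RNA of other cells. Of 34 tested collagens 3 were higher and 28 lower in 4T1 cells, beside 30.5% and 51% of all 18242 genes (81.5% in either direction). The median log2 fold change was -6.49 for the collagens and -0.56 for all genes. The 3 higher genes were Col8a1 (5.60 ± 0.36, adjusted p = 8.4e-10), Col7a1 (3.88 ± 0.38, adjusted p = 1.4e-07) and Col18a1 (1.76 ± 0.26, adjusted p = 1.3e-05). Col8a1 stood at 109, 98.5 and 77.6 TPM in 4T1 cells and 0.69, 1.02 and 2.08 TPM in distal libraries, and Col7a1 at 23.3, 24.6 and 20.4 against 1.90, 0.97 and 1.92 TPM. The groups did not overlap for any of the 3. All 12 fibroblast markers (median -11.43), all 10 mural and all 12 leukocyte markers were lower in cultured 4T1 cells. So were all 12 alveolar type 2 markers (median -16.55), beside 51% of all genes. The part of each cell type in the collagen differences was not tested.

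The main fibrillar chains were nearly absent from cultured 4T1 cells. Col3a1 had 4 counts in the 3 cultured libraries and 44904 in the distal libraries, and its log2 fold change was -14.17 ± 0.44 (adjusted p = 5.1e-13). Col1a1 was at -11.64 ± 0.36 and Col1a2 at -11.70 ± 0.43. Col5a2 had 0 counts in culture and was at least 3090-fold lower, as was Col23a1, at least 834-fold. Bounds were at least 64.5-fold for Col28a1, 52.2-fold for Col6a6 and 48.5-fold for Col6a5. Col4a3 (-12.10 ± 0.54) and Col4a4 (-7.93 ± 0.34) of the alveolar network were also far lower, whereas Col4a1 (-0.69 ± 0.12) and Col4a2 (-0.73 ± 0.12) lay close to the median of all genes. Col5a1 had a fold change of -0.85 ± 0.15 but overlapped in TPM, at 6.95, 4.07 and 3.21 against 5.35, 6.74 and 4.01, and on log2(TPM + 0.5) it was not called (-0.2, adjusted p = 0.49). Neither Col4a2 (-0.09, adjusted p = 0.57) nor Col24a1 (-0.44, adjusted p = 0.16) was called on that scale. Col16a1, which coats fibrils, was not called, at 15.2 ± 1.43 and 13.6 ± 2.48 TPM, nor were Col10a1 and Col11a1, with 4 and 0 counts in culture and 9 and 2 in distal libraries.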

How the data were processed

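RNA libraries of 15 samples were examined. Per the submitters' processing notes the authors used RSEM on GRCm38 and DESeq2. No source used here states the aligner, annotation or strand setting. Expected counts per gene, as deposited, were rounded to whole numbers for testing, and the deposited TPM values, which the authors scaled per transcript length and library, were used for levels between genes. Of 54838 identifiers, 54809 matched GENCODE M21. CPM are counts scaled to library size with TMM factors, and percentages of another group are from plain CPM.

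Groups were compared by the quasi-likelihood F-test of edgeR 4.0.16 in R 4.3.3 (filterByExpr, TMM factors, p adjusted by Benjamini-Hochberg across every gene tested, threshold 0.05), on the 6 4T1 libraries, the 9 epithelial libraries, or all 15 for cultured 4T1 against distal epithelium. The test was checked on simulated data. Alternatives were DESeq2 1.42.0, its size factors, limma 3.58.1 on log2(TPM + 0.5), no filter, other sets of libraries, a replicate block and leaving out each library. Samples with the same replicate letter deviated together between shSox9 and control niche libraries (correlations of deviations 0.198, 0.142 and 0.171), and the block left the counts there at 6 and 0. No libraries were duplicates (chi-square per degree of freedom 8.27 to 43.4 between replicates). Intervals of log2 fold changes come from the edgeR fit and include the spread between libraries, whereas floors and intervals of count ratios cover counting error only.

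Members and lists were chosen with earlier results of these data known. Named collagens were those called in a comparison, those among the 10 highest by TPM in a group, and partners in a heterotrimer, and others were named to account for every member. From the other lists, up to 4 called genes with the largest log2 change and at least 5 CPM in the higher group could be named, and 1 such gene is not reported here. Marker lists not described with a result were, in niche against distal libraries, mesothelial (1 higher and 4 lower of 8), epithelial (1 and 5 of 8) and basal (2 and 3 of 7).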

Additional observations from a re-analysis of the deposited data

How the results depend on the processing

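Of 113 results for single collagens, 86 kept their direction and side of the threshold under all settings run, 22 changed side at least 1 time and 7 changed direction. On log2(TPM + 0.5) the sign turned for Col7a1 in 4T1 cells from lung (0.12), Col14a1 in niche against distal (0.3), and Col17a1 (0.06) and Col4a5 (0.43) in shSox9 against distal libraries. Leaving out 1 library gave ranges that crossed 0 in shSox9 against control niche for Col1a1 (-0.22 to 0.16), Col1a2 (-0.21 to 0.14) and Col3a1 (-0.04 to 0.31), and in shSox9 against distal for Col4a5 (-0.26 to 0.19). The count of collagens lower in niche against distal libraries was 4 on log2(TPM + 0.5) and 4 to 9 with 1 library left out, in place of 8. For shSox9 against control niche, the count higher was 3 to 7 with 1 library left out, and the count lower was 2 with no filter on low counts, 1 on log2(TPM + 0.5) and 1 with only the 6 libraries of both groups. The causes were not tested. With the replicate block the counts higher and lower were 11 and 3 in 4T1 in vivo against in vitro, 19 and 9 in niche against distal, 6 and 0 in shSox9 against control niche, 22 and 4 in shSox9 against distal, and 3 and 29 in cultured 4T1 against distal.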
